A study of Arabidopsis thaliana with 2 samples.

Results

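The late embryogenesis abundant (LEA) genes other than dehydrins were taken from a deposited table of Arabidopsis gene expression as all genes whose description holds the words "late embryogenesis abundant", in any case. A fixed group of 14 dehydrin, COR15 and KIN loci was kept out, although the descriptions of 0 of these hold the words. The rule found 84 LEA genes of 33602 genes in the table and used no measured value. The libraries came from an RNA-seq comparison of a transgenic Arabidopsis line with its wild type, in which the genes that respond to SsCBF1, a cold-response regulator of the wild tomato relative Solanum lycopersicoides, were sought. The transgenic plants were 35S:SsCBF1-11, a homozygous T3 line in the Col-0 background that carries SsCBF1 behind the constitutive CaMV 35S promoter. The wild-type plants were Col-0, the parent accession. Both were 4 weeks old and had been grown without stress at 22 °C under a cycle of 16 h light and 8 h dark, and the aerial parts of 20 plants were pooled for each genotype. Only 1 transgenic line and 1 library per genotype were sequenced, so that line, pool and library cannot be told apart from the transgene. The SsCBF1 transcript itself was not analysed here.

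LEA proteins were first found in seeds that dry out late in their development, and many of them are small, hydrophilic and largely unfolded in solution. They are thought to protect membranes and other proteins when water is withdrawn by drying, salt or freezing, and some of their genes are switched on in leaves by abscisic acid or cold. The name also covers the LEA_2 domain, which occurs in a more hydrophobic class that includes LEA14 and in a large family of membrane proteins related to NDR1, a protein needed for signalling by plant immune receptors. CBF proteins bind the CRT/DRE element, whose core is CCGAC, in the promoters of cold-regulated genes.

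The counts of the table sum to 6669454 reads in 35S:SsCBF1-11 and 9120358 reads in Col-0. The 4 leaf markers examined held 3.498% of the reads in 35S:SsCBF1-11 and 3.036% in Col-0, and all 4 were higher per total in 35S:SsCBF1-11 at an adjusted p under 0.05, with ratios from 1.05 for CA1, a carbonic anhydrase, to 1.56 for LHCB1.1, an antenna protein. The 4 root markers examined had 0 to 2 reads per library. Each gene was tested by an exact two-sided binomial test of its reads against the share of 35S:SsCBF1-11 in the total, 42.24%, with Benjamini-Hochberg adjustment over the 22319 genes with at least 1 read. Such a p-value compares 2 libraries and not the genotypes, since there was no replicate check. The 95% intervals given below are exact and cover counting error only, reads without molecular identifiers not being independent molecules, and a count of 0 allows up to 3 reads. In tissue with mixed cells, fewer cells of a type and less RNA per cell cannot be told apart.

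Most LEA genes had few or no reads in the aerial parts. Of the 84, 28 had no read in either library (33.33%, against 33.58% of all genes), 24 had 1 to 9 reads in both libraries together, 11 had 10 to 49 and 21 had at least 50. Reads were present in both libraries for 44 LEA genes, only in Col-0 for 10 and only in 35S:SsCBF1-11 for 2. The descriptions divide the genes into 41 of a hydroxyproline-rich glycoprotein family, 11 with a numbered LEA group, 2 of the LEA3 family and 30 with other wording. The classes differed in how often they were read. Only 6 of the 41 hydroxyproline-rich genes had no read (14.63%), whereas 17 of the 30 with other wording had none (56.67%). The genes without reads included LEA7, M10, M17, LEA18 and AtLEA4-1, and both members of group 1 were at 0 in both libraries. For 8 of the 84, the words stand only in a remark on similarity or domain content, and these had 134 reads in 35S:SsCBF1-11 and 164 in Col-0.

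**Figure D1:**
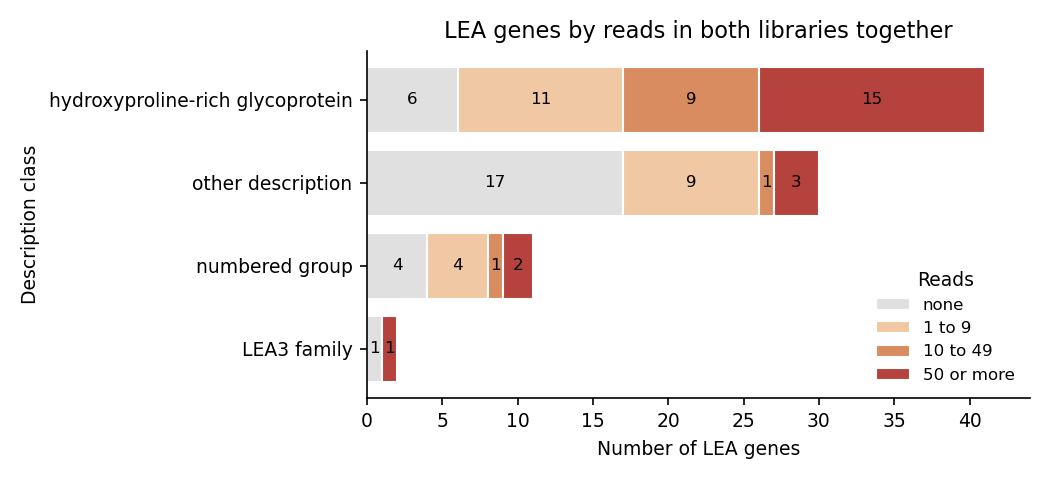
Number of LEA genes (x axis) in each description class (y axis), divided by the reads of the gene in both libraries together. The hydroxyproline-rich class has 15 genes with 50 or more reads and 6 with none, and the class with other wording has 3 and 17.

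Together the LEA genes had 4552 reads in 35S:SsCBF1-11 and 5556 in Col-0. This was 0.0683% of the reads in 35S:SsCBF1-11 (95% interval 0.0663 to 0.0703%) and 0.0609% in Col-0 (0.0593 to 0.0625%), a ratio of 1.12 (1.08 to 1.17). The sum was carried by a few genes, since the 5 with most reads in each library held 69.51% of the LEA reads in 35S:SsCBF1-11 and 62.33% in Col-0. The 5 with most reads over both libraries had 3164 reads in 35S:SsCBF1-11 (0.0474% of its reads) and 3436 in Col-0 (0.0377%). Of the 32 LEA genes with at least 10 reads, 8 lay above a ratio of 1 and 24 below. The pooled ratio thus does not describe most of the LEA genes.

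No LEA gene taken by the rule passed the stricter threshold, an adjusted p under 0.001 with a change of more than 2-fold. This does not cover the dehydrin, COR15 and KIN loci kept out by the rule. Of these loci, given below, 3 of the 12 with reads were called higher. Of the 56 LEA genes tested, 0 were called higher in 35S:SsCBF1-11, against 0.533% of all genes tested, and 0 were called lower, against 0.838% of all genes tested. At an unadjusted p under 0.05, 3 were higher (5.36%, against 7.71% of all genes tested) and 7 were lower (12.5%, against 13.5%), so that neither share exceeded the background. With the size factors of edgeR or DESeq2 in place of the library totals, 1 LEA gene, AT2G23120, was called higher and 0 lower, while 0 were called in either direction once a spread between pools was assumed in edgeR's exact test. At an adjusted p under 0.05 with no limit on the fold, 3 of the 56 were higher (5.36%, against a background of 4.5%) and 4 were lower (7.14%, against 7.18%). Both shares were near those of all genes. None of these 7 genes passed when pools were assumed to vary with a coefficient of 0.2. Among genes with at least 50 reads, 3 of 21 LEA genes were higher (14.3%, background 6.56%) and 3 of 21 were lower (14.3%, background 10.3%), and each of these counts rests on 3 genes.

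Over the 32 LEA genes with at least 10 reads, the median log2 ratio of 35S:SsCBF1-11 over Col-0 was -0.19, beside -0.072 over the 18443 genes with as many reads. Of these 32, 8 lay above a ratio of 1 and 24 below, that is 25% above, beside 41.4% of all genes. The lower median rested on weakly read genes, since over the 21 LEA genes with at least 50 reads it was -0.044, beside -0.057 over all genes with as many.

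**Figure D2:**
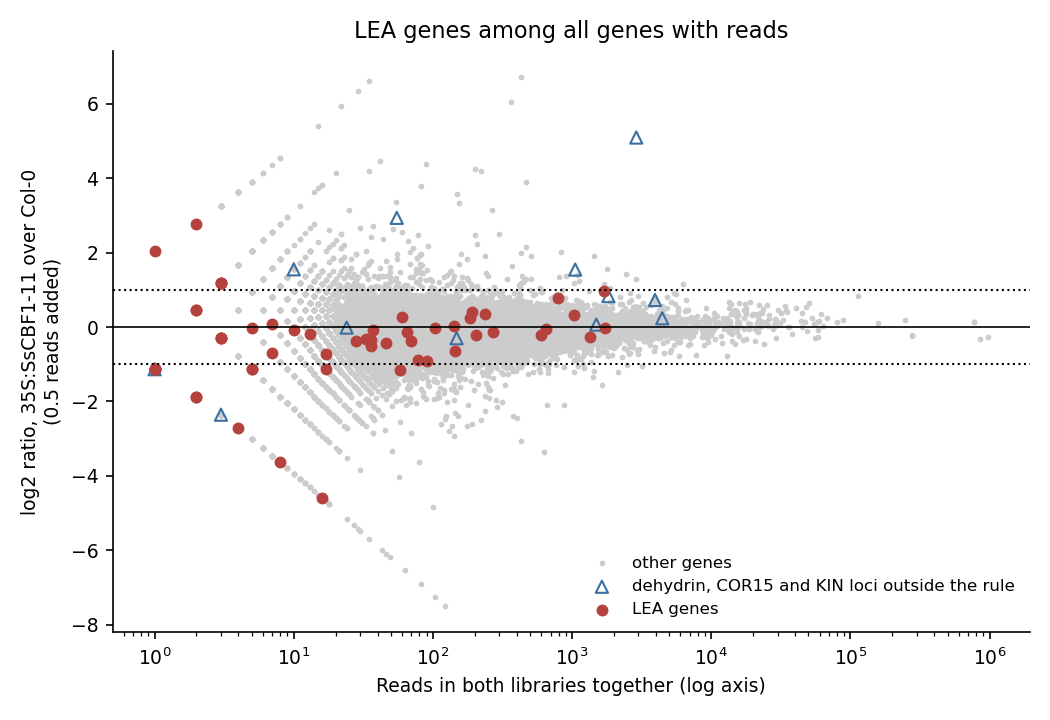
Log2 ratio of 35S:SsCBF1-11 over Col-0 with 0.5 reads added (y axis) against the reads in both libraries together (x axis, log scale) for every gene with reads, with LEA genes as filled circles, the dehydrin, COR15 and KIN loci outside the rule as triangles and dotted lines at 2-fold. The 21 LEA genes with at least 50 reads lie between -1.17 and 0.96, and those further out have fewer reads.

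AT2G23120, a LEA gene of group 6, had the smallest adjusted p of the LEA genes. It had 994 reads (252 RPKM) in 35S:SsCBF1-11 and 699 reads (129 RPKM) in Col-0, and it was the LEA gene with the highest RPKM in 35S:SsCBF1-11. The ratio of reads per total was 1.94 (1.76 to 2.15; adjusted p = 7.17e-40). The ratio itself fell just short of 2 while its interval crossed that value. In TAIR10.1, AT2G23120 spans bases 9841842 to 9842634 of chromosome 2 (plus strand), and all 144 bases of another annotated gene, AT2G23118, lie inside it. Whether the counting used strand is not given in the sources used here, so reads of the pair could not be separated. The other group 6 genes had hardly any reads, with 0 reads in 35S:SsCBF1-11 and 2 in Col-0 for AT2G23110, which lies only 475 bases away, and 0 in both for AT2G33690.

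LEA14 (AT1G01470), a LEA_2 protein whose transcript is annotated as induced by wounding and light stress, had the next smallest adjusted p of the LEA genes. It had 445 reads (91.8 RPKM) in 35S:SsCBF1-11 and 351 reads (52.9 RPKM) in Col-0. The ratio was 1.73 (1.504 to 1.9998; adjusted p = 8.20e-13). LEA14 spans bases 171525 to 172948 of chromosome 1 (minus strand). AT2G46140 (LEA27), the gene whose coding sequence is nearest to that of LEA14 (67.75% identity over 431 bases), had 43 reads in 35S:SsCBF1-11 and 60 in Col-0, a ratio of 0.980 (0.647 to 1.47; adjusted p = 1). The difference between the ratios of these relatives was not tested. The part of the leaf markers, all 4 of which were also higher in 35S:SsCBF1-11 (ratios 1.05 to 1.56), in the rise of AT2G23120 and LEA14 was not tested.

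The third gene that rose was AT3G52470, of the hydroxyproline-rich class, which spans bases 19450506 to 19451982 of chromosome 3 (plus strand). It had 495 reads (76.5 RPKM) in 35S:SsCBF1-11 and 541 reads (61.2 RPKM) in Col-0. The ratio was 1.25 (1.11 to 1.42; adjusted p = 0.00461), well short of 2-fold. Its annotated end shares 32 bases with AT3G52480, and the reads from this stretch could not be assigned.

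**Figure D3:**
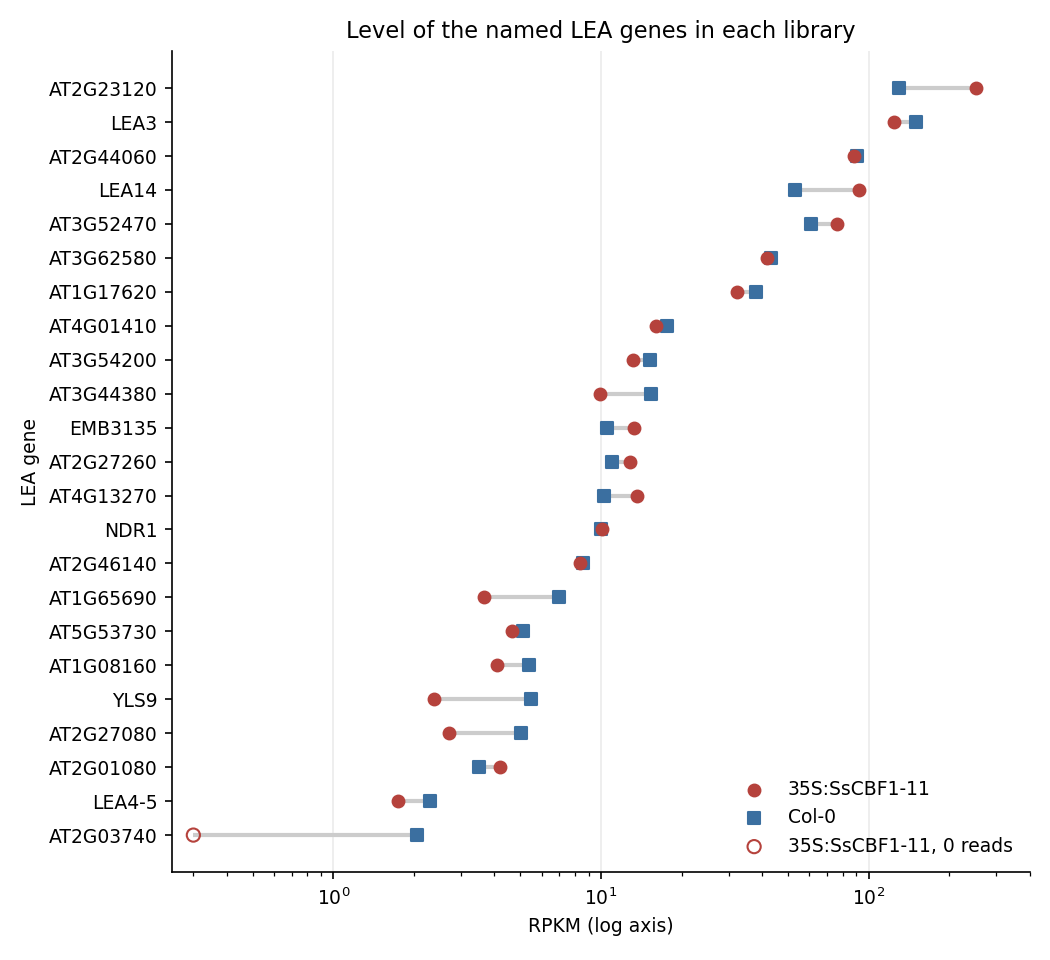
RPKM (x axis, log scale) of the 23 named LEA genes (y axis) in 35S:SsCBF1-11 (circles) and Col-0 (squares), with an open circle at the left edge where 35S:SsCBF1-11 had 0 reads. AT2G23120 and LEA14 lie further right in 35S:SsCBF1-11, and AT2G03740 has 0 reads in 35S:SsCBF1-11 against 2.05 RPKM in Col-0.

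To show what lies before these genes, the TAIR10.1 sequence (RefSeq) upstream of the annotated gene starts was read. The stretches printed below run 5′ to 3′ on the strand of the gene, and capitals mark the CRT/DRE core CCGAC and the core ACGTG of the ABRE, the element bound by bZIP factors in the abscisic acid response, on either strand. They were chosen as the CCGAC copies with 30 bases on each side for LEA14, AT3G52470 and LEA3, the 250 bases next to the start for AT2G23120, and the ACGTG copies near the start for AT2G03740. The positions are chr1:173241-173329 on the minus strand for LEA14, chr3:19449851-19450009 on the plus strand for AT3G52470, chr1:624891-625000 on the minus strand for LEA3, chr2:9841592-9841841 on the plus strand for AT2G23120 and chr2:1144053-1144142 on the minus strand for AT2G03740.
LEA14: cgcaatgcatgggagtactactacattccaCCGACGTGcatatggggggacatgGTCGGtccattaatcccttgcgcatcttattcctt
AT3G52470: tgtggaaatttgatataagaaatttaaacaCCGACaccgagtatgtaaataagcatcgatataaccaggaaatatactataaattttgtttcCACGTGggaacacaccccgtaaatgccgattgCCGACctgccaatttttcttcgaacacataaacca
LEA3: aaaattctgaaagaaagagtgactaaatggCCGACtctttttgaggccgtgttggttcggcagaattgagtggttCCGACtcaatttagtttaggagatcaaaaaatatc
AT2G23120: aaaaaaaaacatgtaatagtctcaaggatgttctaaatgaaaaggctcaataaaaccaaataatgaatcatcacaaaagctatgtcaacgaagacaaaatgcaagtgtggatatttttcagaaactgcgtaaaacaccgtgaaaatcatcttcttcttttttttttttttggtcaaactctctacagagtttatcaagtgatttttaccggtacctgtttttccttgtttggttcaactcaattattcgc
AT2G03740: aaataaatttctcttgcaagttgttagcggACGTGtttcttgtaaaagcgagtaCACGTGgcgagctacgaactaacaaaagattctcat

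LEA14 had 2 CCGAC copies in the 1000 bases upstream, with 346 and 322 bases between the copy and the gene start, both in the form ACCGAC. The farther copy shared 2 bases with an ACGTG on the same strand, and LEA14 had 6 ACGTG matches in this window. The matches at 583 and 582 bases are the 2 strands of 1 palindrome. A further CCGAC of LEA14 lies at or just after the gene start, within the first 50 bases. AT3G52470 also had 2 CCGAC copies, at 620 and 526 bases, with A and G before them. It had 5 ACGTG matches, of which those at 558 and 557 bases are the 2 strands of 1 palindrome. Those at 420 and 419 bases are likewise the 2 strands of 1 palindrome. AT2G23120, which had the highest ratio of the 3 genes that rose, had no CCGAC in the 1000 bases and 1 ACGTG at 927 bases, beyond the 475 bases that separate it from AT2G23110. Copies were also present before genes that fell. LEA3 had CCGAC at 398 and 353 bases, with G and T before them. YLS9 had CCGAC at 988 and 901 bases, with C and G before them. Both copies of YLS9 lie beyond the 718 bases that separate it from the next gene. Neither LEA3 nor YLS9 had the form ACCGAC. AT2G03740 had no CCGAC and 4 ACGTG matches, of which those at 95 and 94 bases are the 2 strands of 1 palindrome. AT1G65690 had neither motif. A match is a description of letters and not a bound site, and no match says only that the letters are not in the window.

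**Figure D4:**
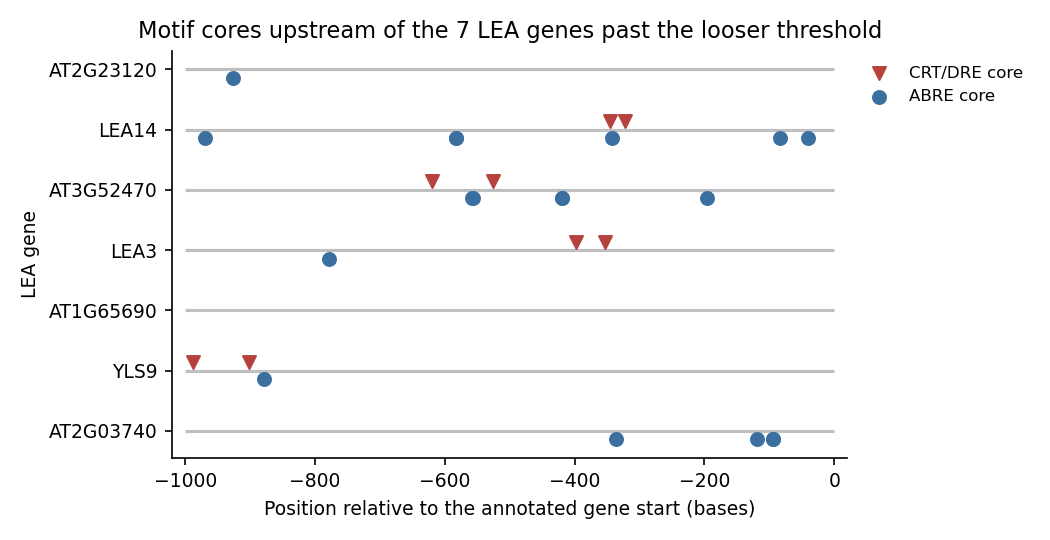
Position of the CRT/DRE core (triangles) and the ABRE core (circles) in the 1000 bases upstream of the 7 LEA genes with an adjusted p under 0.05 (y axis, from the highest ratio at the top to the lowest), in bases from the annotated gene start (x axis). LEA14, AT3G52470, LEA3 and YLS9 each have 2 CRT/DRE cores, and AT2G23120, AT1G65690 and AT2G03740 have none.

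Across all 84 LEA genes, CCGAC on either strand was found in the 250 bases before to 50 bases after the gene start of 18 (21.4%, beside 15% of 27443 promoters), and the forms ACCGAC or GCCGAC, which are CCGAC matches with A or G before them, in 17 (20.2%, beside 8.72%). ACGTG was found in 37 (44%, beside 26.7%). CATGCATG, the RY element read by the B3 factors of seed maturation, was found in 3 (3.57%, beside 0.878%). In the 1000 bases upstream, the shares were 46.4% beside 37.4% for CCGAC, 31% beside 22.3% for ACCGAC or GCCGAC, 63.1% beside 54.4% for ACGTG and 8.33% beside 3.31% for CATGCATG. The shares of the LEA genes lay above those of all promoters for each motif in both windows, and the differences were not tested. CCGAC in the shorter window was held by 3 of the 21 LEA genes with at least 50 reads and by 7 of the 28 with none.

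Among the 4 LEA genes that fell at an adjusted p under 0.05, LEA3 (AT1G02820) was by far the best read. It had 512 reads (125 RPKM) in 35S:SsCBF1-11 and 840 reads (150 RPKM) in Col-0, the highest RPKM of any LEA gene in Col-0. The change was small, 1.20-fold lower (1.07 to 1.34; adjusted p = 0.0132), and it did not pass the threshold with the size factors of edgeR (adjusted p = 0.108) or DESeq2 (adjusted p = 0.121). The other LEA3 family member, AT3G53770, had 0 reads in both libraries.

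The remaining well-read genes outside the hydroxyproline-rich class had ratios near 1. AT2G44060, also named LEA26 and described as group 2, had 718 reads (88.1 RPKM) in 35S:SsCBF1-11 and 1005 reads (90.2 RPKM) in Col-0, a ratio of 0.977 (0.887 to 1.08; adjusted p = 0.909). AT3G62580 had 268 reads (41.8 RPKM) in 35S:SsCBF1-11 and 378 reads (43.1 RPKM) in Col-0, a ratio of 0.970 (0.826 to 1.14). Neither passed the test, and both intervals lie well inside 2-fold. AT3G62580 shares 387 bases with a long noncoding RNA gene, AT3G09795, and 34 bases with AT3G62590, and reads from these stretches could not be assigned. LEA4-5 (AT5G06760), of the group 4 proteins that accumulate in water-stressed plants, had only 10 reads in 35S:SsCBF1-11 and 18 in Col-0, and its ratio of 0.760 (0.313 to 1.74; adjusted p = 0.865) could not show a difference at this depth.

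The hydroxyproline-rich class had 1550 reads in 35S:SsCBF1-11 and 2156 in Col-0. Of its 24 genes with at least 10 reads, 6 lay above a ratio of 1 and 18 below, with a median log2 ratio of -0.22. That is 25% above, beside 41.4% of all genes with as many reads, whose median was -0.072. Over the 15 genes of the class with at least 50 reads, the median was -0.13, beside -0.057 over all genes with as many. At an adjusted p under 0.05, 4.5% of all genes tested were higher and 7.18% lower. Of the 35 genes of the class with reads, 1 was higher (AT3G52470) and 2 were lower. The first of these was YLS9 (AT2G35980), also named NHL10, a relative of NDR1 known from yellowing leaves and pathogen responses. It had 14 reads (2.37 RPKM) in 35S:SsCBF1-11 and 44 reads (5.46 RPKM) in Col-0, which is 2.30-fold lower (1.24 to 4.54; adjusted p = 0.0439). The second was AT1G65690, with 25 reads (3.65 RPKM) in 35S:SsCBF1-11 and 65 reads (6.95 RPKM) in Col-0, 1.90-fold lower (1.18 to 3.15; adjusted p = 0.0467). Both passed narrowly, and neither did with the size factors of edgeR (adjusted p = 0.0790 for YLS9 and 0.0758 for AT1G65690) or DESeq2 (0.0788 and 0.0765).

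Another pair of this class came close to the threshold. AT2G27080 had 22 reads in 35S:SsCBF1-11 and 56 in Col-0, a ratio of 0.537 (0.312 to 0.894; adjusted p = 0.0846). It shares 69 bases with AT2G27090, and reads from this stretch could not be assigned. AT3G44380 had 46 reads in 35S:SsCBF1-11 and 98 in Col-0, a ratio of 0.642 (0.442 to 0.9201; adjusted p = 0.0970). NDR1 itself (AT3G20600) had 60 reads (10.097 RPKM) in 35S:SsCBF1-11 and 81 reads (9.97 RPKM) in Col-0, a ratio of 1.01 (0.713 to 1.43; adjusted p = 1). The gene beside it, AT3G20590, shares 90.16% of 569 aligned coding bases with NDR1 and had 1 read in each library, so that reads of the pair may have been split by the counting.

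The other well-read hydroxyproline-rich genes did not pass the test. AT1G17620 had 232 reads in 35S:SsCBF1-11 and 371 in Col-0 (ratio 0.855, 0.723 to 1.01). AT4G01410 had 108 reads in 35S:SsCBF1-11 and 162 in Col-0 (ratio 0.912, 0.708 to 1.17). AT3G54200 had 79 reads in 35S:SsCBF1-11 and 125 in Col-0 (ratio 0.864, 0.644 to 1.15). These genes lay below 1 with intervals that took in 1, and 3 others lay above it. EMB3135 (AT5G11890), a gene named for an embryo-defective mutant, had 114 reads in 35S:SsCBF1-11 and 123 in Col-0 (ratio 1.27, 0.974 to 1.65). AT4G13270 had 94 reads in 35S:SsCBF1-11 and 97 in Col-0 (ratio 1.33, 0.987 to 1.78). It shares 327 bases with a long noncoding RNA gene, AT4G06060, and 88 bases with AT4G13280, and reads from these stretches could not be assigned. AT2G27260 had 85 reads in 35S:SsCBF1-11 and 99 in Col-0 (ratio 1.17, 0.868 to 1.58). Another 3 genes were read too little to narrow the ratio. AT1G08160 had 25 reads in 35S:SsCBF1-11 and 45 in Col-0 (ratio 0.760, 0.446 to 1.27). AT5G53730, also named NHL26, had 26 reads in 35S:SsCBF1-11 and 39 in Col-0 (ratio 0.912, 0.533 to 1.54). AT2G01080 had 28 reads in 35S:SsCBF1-11 and 32 in Col-0 (ratio 1.20, 0.694 to 2.05). The 9 hydroxyproline-rich genes with 10 to 49 reads had 4 to 16 reads in 35S:SsCBF1-11 and 6 to 30 in Col-0, and their ratios lay between 0.421 and 0.932. All 9 lay below 1, and all 9 intervals took in 1.

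**Figure D5:**
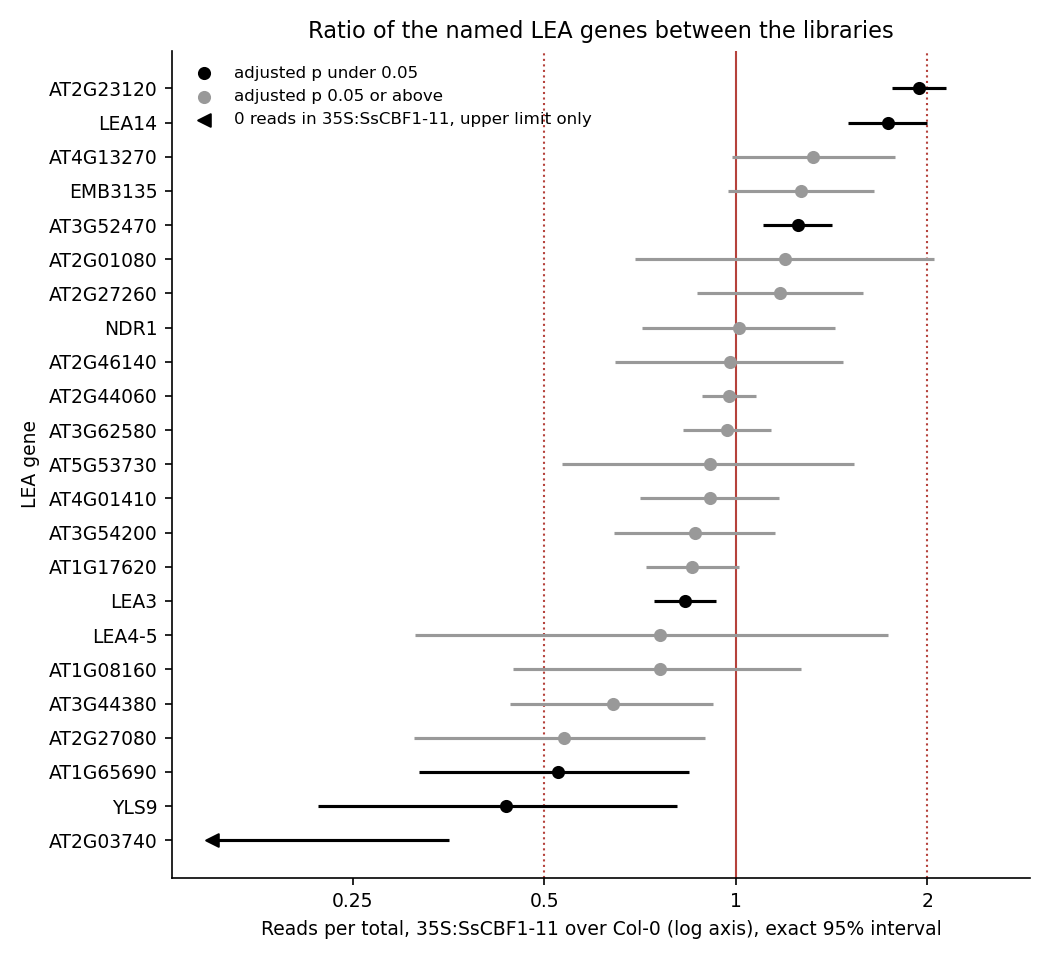
Ratio of reads per total in 35S:SsCBF1-11 over Col-0 (x axis, log scale) for the 23 named LEA genes (y axis), with exact 95% intervals for counting error, a full line at 1 and dotted lines at 2-fold either way. AT2G23120 (1.94) and LEA14 (1.73) stand at the top, and AT2G03740 at the bottom has an upper limit of 0.355 only.

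AT2G03740 was the weakly read gene with the sharpest contrast. It had 0 reads in 35S:SsCBF1-11 and 16 reads (2.05 RPKM) in Col-0. Against the limit of 3 reads that a count of 0 allows, it was at least 3.90-fold lower in 35S:SsCBF1-11 (adjusted p = 0.00270), and the interval that includes the counting error of both libraries begins at 2.82-fold lower. AT2G03740 spans bases 1142725 to 1143988 of chromosome 2 (minus strand). AT2G03850, its nearest relative in coding sequence (81.48% identity over 567 bases), had 0 reads in 35S:SsCBF1-11 and 8 in Col-0, and it did not pass the test (adjusted p = 0.143). The interval that includes the counting error of both libraries begins at 1.25-fold lower. The 4 anther markers examined had 0 reads in 35S:SsCBF1-11 and together 238 in Col-0. At an adjusted p under 0.05, where 7.18% of all genes tested were lower, 2 of the 4 markers fell. These were GRP17, a pollen coat protein, with 0 reads in 35S:SsCBF1-11 and 123 in Col-0 (adjusted p = 1.36e-27), and ATA27, with 0 in 35S:SsCBF1-11 and 103 in Col-0 (adjusted p = 5.02e-23). A9, a tapetum gene, with 0 in 35S:SsCBF1-11 and 9 in Col-0 (adjusted p = 0.0904), and ATA1, with 0 in 35S:SsCBF1-11 and 3 in Col-0 (adjusted p = 0.631), did not pass. The authors of the study report that this line flowered later than Col-0, so that the stage of the plants cannot be told apart from the transgene in these pools. The part of the anther in the difference of AT2G03740 and AT2G03850 was not tested.

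Regulators of the seed programme were read for comparison. Of 20 genes in this list, 14 had reads, and 0 of these passed an adjusted p of 0.05 in either direction, with 0 higher and 1 lower of the 14 at an unadjusted p under 0.05, where 7.71% of all genes tested were higher and 13.5% lower. ABI3, FUS3, LEC1 and LEC2, the master regulators of seed maturation, had 0 reads in both libraries. The factors that act in abscisic acid responses of leaves were read. ABF3 had 210 reads in 35S:SsCBF1-11 and 320 in Col-0, and ABF2 had 156 in 35S:SsCBF1-11 and 244 in Col-0. ABF4 had 70 reads in 35S:SsCBF1-11 and 130 in Col-0, a ratio of 0.736 (0.543 to 0.992; adjusted p = 0.196). The median log2 ratio of the 12 regulators with at least 10 reads was -0.17, with 4 above a ratio of 1 and 8 below. The 14 seed storage and oil body genes had 11 reads in 35S:SsCBF1-11 and 28 in Col-0 altogether, nearly all in 2 oleosin genes. OLEO4 had 10 reads in 35S:SsCBF1-11 and 15 in Col-0, and OLEO3 had 1 in 35S:SsCBF1-11 and 10 in Col-0.

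LEA-type genes whose description lacks the words were read as well. The 11 examined do not include the dehydrin, COR15 and KIN loci, whose descriptions also lack the words and which are given below. Of these 11 genes, 5 had reads. At an adjusted p under 0.05, 0 of the 5 rose (beside 4.5% of all genes tested) and 1 fell (beside 7.18%). The one that fell was DI21, a drought-induced gene, with 143 reads in 35S:SsCBF1-11 and 290 in Col-0, a ratio of 0.674 (0.548 to 0.827; adjusted p = 0.00160). SAG21, a senescence-associated gene whose coding sequence is the nearest to that of LEA3 (72.51% identity over 291 bases), had 225 reads in 35S:SsCBF1-11 and 316 in Col-0, a ratio of 0.974 (0.817 to 1.16). The seed genes EM1 and EM6 had 0 reads in both.

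Of 7 NDR1/HIN1-like genes that are not described as LEA genes, 6 had reads. At an adjusted p under 0.05, 1 of the 6 rose (beside 4.5% of all genes tested) and 1 fell (beside 7.18%). NHL1 had 1309 reads in 35S:SsCBF1-11 and 1571 in Col-0, a ratio of 1.14 (1.06 to 1.23; adjusted p = 0.00671). NHL3, a membrane protein of pathogen responses, had 559 reads in 35S:SsCBF1-11 and 1049 in Col-0, a ratio of 0.729 (0.656 to 0.808; adjusted p = 4.31e-08). NHL12 had 694 reads in 35S:SsCBF1-11 and 948 in Col-0, a ratio of 1.001 (0.906 to 1.11).

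The 14 dehydrin, COR15 and KIN loci outside the rule, among them known targets of CBF proteins, had 9513 reads in 35S:SsCBF1-11 and 6381 in Col-0. Of the 12 with reads, 3 were called higher at the stricter threshold (beside 0.533% of all genes tested) and 0 lower (beside 0.838%). At an adjusted p under 0.05, 6 of the 12 were higher (beside 4.5%) and 0 lower (beside 7.18%). These counts are not divided here into dehydrin, COR15 and KIN loci, so they do not say which family was called. The median log2 ratio over the 10 of the 14 loci with at least 10 reads was 0.78, beside -0.19 for the LEA genes. Over the 8 with at least 50 reads it was also 0.78, beside -0.044 for the LEA genes. The difference between the groups was not tested, since genes are not replicates.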

How the data were processed

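RNA-seq libraries of 35S:SsCBF1-11 and Col-0, 1 each, were sequenced by the authors on the Illumina platform. TAIR10 and CASAVA 1.7 are named in the submitters' processing notes. Not given in the sources used here were the aligner, the counting rule and the use of strand. The deposited table holds counts of reads per gene, used as they stand, and the authors' RPKM values, which equal the reads over the listed gene length and the library total in 100% of the genes (relative tolerance 1e-06). Its fold changes and q-values of the authors' own comparison were not used. The sums of counts, 6669454 reads in 35S:SsCBF1-11 and 9120358 in Col-0, set the precision.

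With 1 library per group no spread could be estimated, and the exact binomial test with Benjamini-Hochberg adjustment was used. Ratios are of reads per total with Clopper-Pearson 95% intervals, log2 ratios have 0.5 reads added, and a count of 0 was set to 3 reads for bounds. Named genes are the LEA genes with at least 50 reads, those with an adjusted p under 0.05 and the best read of each small class, with up to 4 of each of 7 related lists. Others were chosen after their values were seen. The members and lists were chosen with earlier results of these data known. Alternatives were other scalings, read minimums, pseudocounts and thresholds, and an exact test of edgeR in which a spread was assumed. All 84 LEA genes matched TAIR10.1 (RefSeq), the source of positions and sequences, and coding sequences were compared by BLAST 2.17.0 (expectation value 1e-05). The motif count in 1000 bases was added to the planned 300-base window. The test was tried on simulated counts that held counting error only, with known folds set in well-read genes. Such counts cannot check a spread between pools or the recovery of changes at few reads. Software was edgeR 4.0.16 and DESeq2 1.42.0 (R 4.3.3), and scipy 1.17.1, pandas 2.3.3, matplotlib 3.10.9 and numpy 2.4.6 (Python 3.11.15). Protein features were not analysed here.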

Additional observations from a re-analysis of the deposited data

How the results depend on the processing

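The count of LEA genes called higher was 1 (AT2G23120) with edgeR TMM factors and 1 with DESeq2 size factors, against 0 with library totals, and 2 (LEA14 and AT2G23120) with a fold limit of 1.5. It was 0 under the 8 other settings. No setting called a LEA gene lower. At an adjusted p under 0.05, the count higher was 0 when a coefficient of variation of 0.2 or 0.4 between pools was assumed, and 2 (LEA14 and AT2G23120) at 0.1. The count lower was 1 (AT2G03740) with TMM factors, with DESeq2 factors and at 0.1, and 0 at 0.2 and 0.4. A spread of that size between pools, which 1 library per genotype cannot measure, would leave no LEA gene past the threshold. The median log2 ratio was -0.12 with TMM or DESeq2 factors, which shift the median of all genes by 0.067 and 0.073, and it was -0.27 over genes with at least 1 read and -0.044 over those with at least 50. Among uncalled genes with ratios near 1, AT2G44060, AT2G46140 and AT3G62580 moved above 1 with TMM or DESeq2 factors, and NDR1 moved below 1 with totals over nuclear protein-coding genes or without the 10 most abundant genes. Depth limits what can be read of the 28 LEA genes with no read and the 24 with 1 to 9 reads. No paired analysis was possible because each genotype has 1 library.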

Other observations

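The LEA genes were spread over all 5 chromosomes, with 15, 24, 17, 12 and 16 on chromosomes 1 to 5, and 8 pairs lay within 10000 bases of each other. Some neighbours were read at unlike levels. AT2G23120 had 994 reads in 35S:SsCBF1-11 and 699 in Col-0, and AT2G23110 beside it had 0 in 35S:SsCBF1-11 and 2 in Col-0. AT2G27260 had 85 reads in 35S:SsCBF1-11 and 99 in Col-0, and AT2G27270, 1626 bases away, had 0 in both. YLS9 had 14 reads in 35S:SsCBF1-11 and 44 in Col-0, and AT2G35970, 718 bases away, had 0 in 35S:SsCBF1-11 and 1 in Col-0. AT2G46140 had 43 reads in 35S:SsCBF1-11 and 60 in Col-0, and AT2G46150, 637 bases away, had 12 in 35S:SsCBF1-11 and 24 in Col-0.

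The coding sequences of the 84 LEA genes ran from 204 to 1908 bases, with a median of 682.5 bases, and 38 of them had a single coding exon. A similar coding sequence elsewhere in the genome was found for 56, with a median identity of 73.63%, and for 41 of these it belonged to another LEA gene. The identity was over 90% for 3 genes. The highest, 98.58%, was that of AT2G35970 with NHL22 (AT4G09590), which had 1 read in 35S:SsCBF1-11 and 0 in Col-0. An annotated gene overlaps 20 of the LEA genes.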
